A study of Mus musculus with 16 samples.

Results

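The 10 genes described here encode apolipoproteins, the proteins that coat lipoprotein particles, and are the rows of the deposited table whose symbol is *Apoa1*, *Apoa2*, *Apoa4*, *Apoa5*, *Apob*, *Apoc1*, *Apoc3*, *Apoe*, *Apoh* or *Apom*. All 10 were found among the 17003 genes of the table, and their choice rests on their names and not on their values. The livers came from 16 male mice, 8 weeks old and kept on normal chow, and the labels call them fed. The 8 *Fgl1* LWT mice carried the floxed *Fgl1* fl/fl alleles without CRE. Their 8 *Fgl1* LKO littermates carried the same alleles together with CRE driven by the albumin promoter, which is active in hepatocytes, so that effects of CRE and of the deletion cannot be told apart. Each mouse gave 1 library of polyadenylated RNA, and *Fgl1* encodes a fibrinogen-like protein that hepatocytes secrete. The values are FPKM, fragments per length of transcript, scaled to the mapped fragments of a library. This puts genes of different length on 1 scale, but the transcript lengths used are not given in the sources used here. Comparisons of levels between genes rest on those lengths.

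Hepatocytes make most of the apolipoproteins of plasma. APOB is built into very low density lipoproteins (VLDL) as they are loaded with triglycerides in the endoplasmic reticulum, and it stays with the particle. The other, smaller apolipoproteins can move between particles: APOA1 and APOA2 form high density lipoproteins (HDL), APOC3 and APOA5 act in opposite directions on the lipolysis of triglycerides by lipoprotein lipase, and APOE binds the receptors that clear remnants.

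The members lie at 6 places in the genome (GRCm39, GENCODE annotation). *Apoa1* (chromosome 9, 46139878 to 46142212, plus strand), *Apoc3* (46142527 to 46146934, minus strand), *Apoa4* (46151994 to 46154757, plus strand) and *Apoa5* (46179931 to 46183217, plus strand) sit side by side within 43340 bp. *Apoc1* (chromosome 7, 19422540 to 19427328) and *Apoe* (19430034 to 19434947) are neighbours on the minus strand within 12408 bp. *Apoa2* lies on the plus strand of chromosome 1 (171049125 to 171053948), *Apob* on the plus strand of chromosome 12 (8027648 to 8066835), *Apoh* on the plus strand of chromosome 11 (108233964 to 108305232) and *Apom* on the minus strand of chromosome 17 (35347973 to 35351026). The principal transcript of *Apob* has 29 exons and 13934 bases, against 518 bases for *Apoa2*. In that annotation, opposite-strand genes overlap *Apoa2*, *Apoa4*, *Apoa5*, *Apob*, *Apoe* and *Apoh*, and noncoding genes on its own strand also overlap *Apoh*. The library kit keeps the strand, but the sources used here do not say whether the counting used it.

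Sequences upstream of 5 members are shown because 3 of them (*Apoa1*, *Apoa4* and *Apoa5*) are neighbours with very different mRNA levels and the remaining 2 (*Apoa2* and *Apoe*) are the pair whose levels moved most closely together between mice. They are the 250 bases before a RefSeq transcript start on the strand of the gene (GRCm38.p6), 5′ to 3′. Capitals mark matches on either strand to the TATA box TATAAA, the nuclear receptor motif AGGTCA, the HNF4 site CAAAGTCCA, the STAT site TTCNNNGAA or the box CCAAT, and overlapping matches share their capitals.
*Apoa1*, chr9:46228380-46228629: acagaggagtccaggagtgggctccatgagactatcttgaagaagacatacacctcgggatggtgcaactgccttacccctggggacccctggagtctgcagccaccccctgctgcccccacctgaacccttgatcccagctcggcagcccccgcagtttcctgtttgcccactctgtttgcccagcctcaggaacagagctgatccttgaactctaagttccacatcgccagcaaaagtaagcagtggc
*Apoa4*, chr9:46240594-46240843: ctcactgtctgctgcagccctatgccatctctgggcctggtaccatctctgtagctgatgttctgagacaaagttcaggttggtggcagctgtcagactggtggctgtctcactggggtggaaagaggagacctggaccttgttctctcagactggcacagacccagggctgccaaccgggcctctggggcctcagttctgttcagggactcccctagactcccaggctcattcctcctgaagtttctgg
*Apoa5*, chr9:46268358-46268607: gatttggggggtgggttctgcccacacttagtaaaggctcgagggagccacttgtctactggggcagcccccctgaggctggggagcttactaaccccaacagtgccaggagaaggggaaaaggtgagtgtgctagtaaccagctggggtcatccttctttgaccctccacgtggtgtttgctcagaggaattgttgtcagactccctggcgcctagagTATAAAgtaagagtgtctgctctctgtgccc
*Apoa2*, chr1:171224804-171225053: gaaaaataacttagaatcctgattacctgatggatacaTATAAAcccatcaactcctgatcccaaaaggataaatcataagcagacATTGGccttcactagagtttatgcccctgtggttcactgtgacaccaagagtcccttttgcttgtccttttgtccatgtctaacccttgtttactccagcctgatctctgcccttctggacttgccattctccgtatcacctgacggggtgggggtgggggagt
*Apoe*, chr7:19698622-19698871: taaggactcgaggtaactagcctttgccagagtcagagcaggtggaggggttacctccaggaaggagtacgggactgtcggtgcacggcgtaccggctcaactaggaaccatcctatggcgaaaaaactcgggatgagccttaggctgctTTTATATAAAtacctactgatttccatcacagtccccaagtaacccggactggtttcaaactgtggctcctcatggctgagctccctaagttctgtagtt
RefSeq gave 2 starts for *Apoa2* and *Apoa5* and 3 for *Apoe*, of which 1 each is shown. Of the 3 *Apoe* windows, only the window shown held a match. Its start lies downstream of that of the window chr7:19699189-19699438. The *Apoa2* window not shown held AGGTCA and CCAAT but no TATAAA. Entries were found for 8 of the 10 members, all but *Apoc1* and *Apoc3*. Below, a gene counts if any of its windows matched, while the shares are of single windows. A gene with several windows thus had more chances to match. TATAAA was found upstream of 4 of these 8 genes (*Apoa2*, *Apoa5*, *Apob* and *Apoe*) and in 12.4% of 32851 RefSeq upstream windows of this length. It begins 31 bases before the start in the *Apoa5* window shown, 212 in that of *Apoa2* and 96 in that of *Apoe*. In the *Apob* window it begins 60 bases before the start. AGGTCA was found upstream of *Apoa2* and *Apoh* and in 14.0% of windows. CCAAT was found upstream of *Apoa2* alone and in 33.8% of windows. The HNF4 and STAT sites were found upstream of 0 of the 8 genes, against 0.384% and 7.02% of windows. The matches are letters in a window and were not tested for binding.

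The labels were first checked with *Fgl1* itself. *Fgl1* was read at 157.8 to 1331 FPKM (median 311.9) in *Fgl1* LWT mice and at 13.2 to 90.0 FPKM (median 50.3) in *Fgl1* LKO mice. The genotypes did not overlap (log2 fold change -3.11 ± 0.49 SE on the log2(FPKM + 1) scale; exact permutation test over all splits of the 16 mice into groups of 8, two-sided, p = 0.000155, the smallest that it can give). Summed FPKM per library ran from 673153 to 786188 and 14116 to 14407 genes were above 0, while the number of reads behind them is unknown. The 10 hepatocyte markers summed to between 74839 and 107304 FPKM per mouse, with *Alb* at 44230 ± 9798 FPKM in *Fgl1* LWT mice (SD, n = 8). Of other cell types, the 12 Kupffer cell and macrophage markers summed to 133.3 to 364.1 FPKM, the pancreas markers to at most 2.41 FPKM with 4 of 6 at 0 in all mice, and of the markers of intestine, a tissue that also makes *Apoa4*, *Apoa1* and *Apob*, *Vil1* reached at most 0.23 FPKM while *Fabp2* lay between 15.3 and 66.0 FPKM.

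Apolipoprotein mRNAs were among the most abundant of the liver. *Apoe* ranked 5, *Apoa2* 6, *Apoc1* 8 and *Apoa1* 10 among all 17003 genes by mean FPKM, and *Apoa4*, the lowest member, ranked 403. Summed over the 10 genes, they made up between 6.41% (*Fgl1* LKO replicate 5) and 9.68% (*Fgl1* LWT replicate 1) of all FPKM in a liver. The order fell into steps. *Apoe* (13433 ± 1441 FPKM, SD, n = 16) and *Apoa2* (13369 ± 2024 FPKM) did not differ beyond their spread, *Apoe* being the higher in 10 of 16 mice, and *Apoc1* (12198 ± 2044 FPKM) was below *Apoa2* in 12 mice and above *Apoa1* (10223 ± 1316 FPKM) in 14. *Apoc3* (4207 ± 501 FPKM) was below *Apoa1* in all 16 mice, by 1.92 to 3.12 times, and *Apoh* (1983 ± 259 FPKM) was below *Apoc3* in all 16. The next step led to *Apob* (517.5 ± 80.3 FPKM), which *Apoh* exceeded by 2.64 to 5.06 times. *Apob* and *Apoa5* (502.3 ± 107.0 FPKM) changed places from mouse to mouse, *Apob* being the higher in 10 of 16. *Apom* (434.2 ± 41.0 FPKM) was below *Apoa5* in 13 mice and above *Apoa4* (219.6 ± 115.4 FPKM) in 14. Along chromosome 9 the mean level thus went from 10223 FPKM at *Apoa1* to 4207 FPKM at *Apoc3*, 219.6 FPKM at *Apoa4* and 502.3 FPKM at *Apoa5*.

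**Figure D1:**
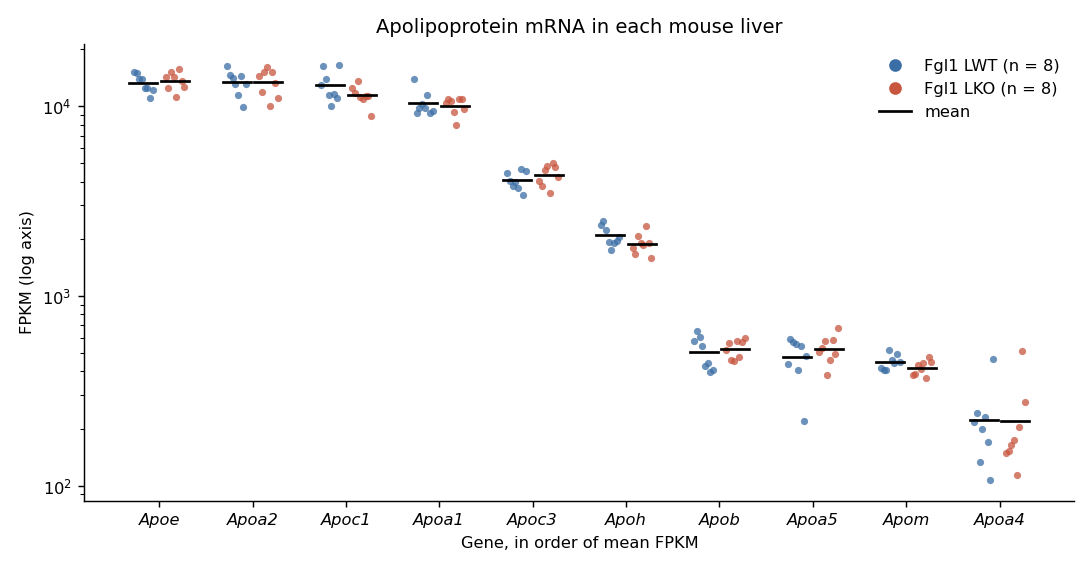
FPKM (log axis) of the 10 apolipoprotein genes in each of 8 *Fgl1* LWT (blue) and 8 *Fgl1* LKO (red) livers, with the genes in order of mean FPKM and black lines at the mean of each genotype. The points of both genotypes overlap for every gene, and *Apoa4* shows the widest scatter, from 107.2 to 512.8 FPKM.

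Variation between mice also differed among the members. The coefficient of variation over 16 mice was lowest for *Apom* (9.43%), *Apoe* (10.7%) and *Apoc3* (11.9%) and highest for *Apoa4* (52.6%), followed by *Apoa5* (21.3%). *Apoa4*, whose protein is carried on chylomicrons and HDL, differed 4.78-fold between its lowest mouse, *Fgl1* LWT replicate 7 (107.2 FPKM), and its highest, *Fgl1* LKO replicate 7 (512.8 FPKM). One mouse of each genotype stood above the rest for *Apoa4*, namely that mouse and *Fgl1* LWT replicate 8 (467.2 FPKM). For comparison, *Apoe* differed 1.42-fold and *Apom* 1.40-fold between their lowest and highest mice. Within genotypes, the residual SD of *Apoa4* on the log2 scale was 0.65 and exceeded that of 93.2% of the genes whose mean reached 100 FPKM. That of *Apom* was 0.13 and exceeded that of 22.8% of those genes.

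The comparison of the genotypes asks whether the loss of hepatocyte *Fgl1* goes with a change in apolipoprotein mRNA. None of the 10 genes passed the threshold (limma on log2(FPKM + 1), two-sided, Benjamini-Hochberg adjustment over 12770 genes, adjusted p of 0.729 to 0.992). Over all genes tested, limma called 0 genes (0%), with a smallest adjusted p of 0.0725 for *Fgl1* and 895 genes (7.01%) at an unadjusted p under 0.05. Of the 10 members, 0 had an unadjusted p under 0.05. The genotypes overlapped for all 10 genes, and over all genes they did not overlap for 2 (0.0157%), *Fgl1* and *Fitm2*, the latter named after its values were seen. An exact rank-sum test in place of limma called 0 of all genes, with 840 at an unadjusted p under 0.05 and none of them a member. The median log2 fold change of the members was -0.02, beside 0.01 over all genes.

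**Figure D2:**
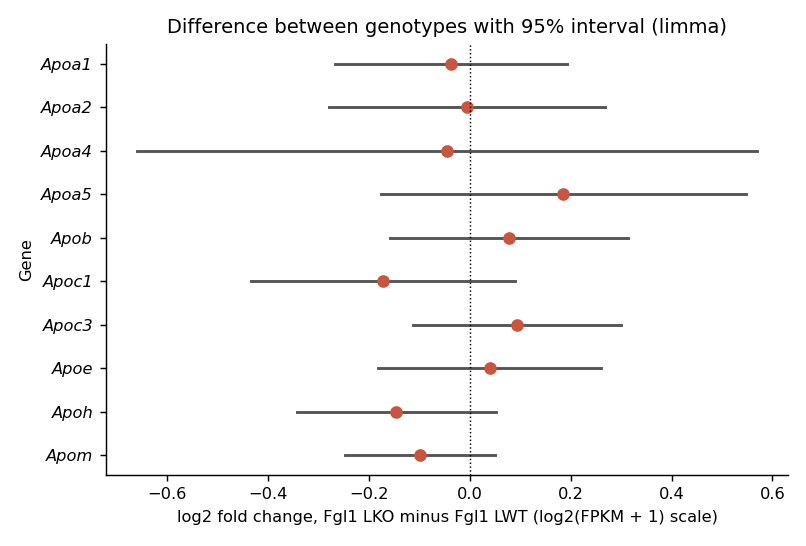
Log2 fold change (*Fgl1* LKO minus *Fgl1* LWT, on the log2(FPKM + 1) scale) of each apolipoprotein gene with its 95% interval from limma, 8 mice per genotype. Each interval includes 0, and those of *Apoa4* and *Apoa5* are the widest of the 10.

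Among the HDL apolipoproteins, *Apoa1*, the main structural protein of HDL and an activator of LCAT, ran from 9247 to 13860 FPKM with a median of 9745 in *Fgl1* LWT mice. In *Fgl1* LKO mice it ran from 7909 to 10932 FPKM with a median of 10531. The *Fgl1* LKO values lay within or below the *Fgl1* LWT range, 5 of 8 above its median (log2 fold change -0.04 ± 0.11 SE, 95% interval -0.27 to 0.19, adjusted p = 0.949; exact permutation test, two-sided, p = 0.702). *Apoa2*, the next most abundant protein of HDL, ran from 9884 to 16351 FPKM around a median of 13604 in *Fgl1* LWT livers, and from 10057 to 16093 FPKM around 13869 in *Fgl1* LKO livers. Its means were 13379 ± 2009 and 13359 ± 2178 FPKM (SD, n = 8 each), and the 95% interval of the difference, -0.28 to 0.27 on the log2 scale, corresponds to 0.83-fold to 1.21-fold. *Apom*, which carries sphingosine 1-phosphate on HDL, ran from 405.7 to 518.4 FPKM around a median of 446.9 in *Fgl1* LWT livers, and from 369.5 to 475.1 FPKM around 420.1 in *Fgl1* LKO livers. In 6 of 8 *Fgl1* LKO livers *Apom* was under the median of the *Fgl1* LWT livers, and its interval was the narrowest of the 10 (log2 fold change -0.10, 95% interval -0.25 to 0.05, adjusted p = 0.766; exact permutation test p = 0.146).

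Among the apolipoproteins of triglyceride-rich particles, *Apob* ran from 395.4 to 650.0 FPKM around a median of 494.1 in *Fgl1* LWT livers, and from 451.8 to 603.5 FPKM around 543.3 in *Fgl1* LKO livers. All *Fgl1* LKO values lay inside the range of the *Fgl1* LWT mice (log2 fold change 0.08, 95% interval -0.16 to 0.31, adjusted p = 0.881). *Apoc3*, which slows lipolysis and remnant uptake, ran from 3384 to 4669 FPKM around a median of 4005 in *Fgl1* LWT livers, and from 3488 to 5006 FPKM around 4430 in *Fgl1* LKO livers. In 6 of 8 *Fgl1* LKO livers *Apoc3* was over the median of the *Fgl1* LWT livers (log2 fold change 0.09, 95% interval -0.11 to 0.30, adjusted p = 0.823). *Apoa5*, which promotes lipolysis and is made almost only in liver, ran from 220.0 to 592.3 FPKM around a median of 512.9 in *Fgl1* LWT livers, and from 385.5 to 680.4 FPKM around 519.1 in *Fgl1* LKO livers. Its log2 fold change, the most positive of the 10, was 0.19 (95% interval -0.18 to 0.55, adjusted p = 0.798), and 0.03 without *Fgl1* LWT replicate 7. *Apoa4* ran from 107.2 to 467.2 FPKM around a median of 208.7 in *Fgl1* LWT livers, and from 114.5 to 512.8 FPKM around 169.4 in *Fgl1* LKO livers. With this scatter, the 95% interval of its difference ran from 0.63-fold to 1.49-fold (adjusted p = 0.976).

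Among the remaining exchangeable apolipoproteins, *Apoe* ran from 11028 to 15182 FPKM around a median of 13208 in *Fgl1* LWT livers, and from 11197 to 15703 FPKM around 13846 in *Fgl1* LKO livers (log2 fold change 0.04, 95% interval -0.18 to 0.26, adjusted p = 0.942). Macrophages also make APOE, and the 12 Kupffer cell and macrophage markers summed to 133.3 to 282.3 FPKM in *Fgl1* LWT mice and 186.1 to 364.1 FPKM in *Fgl1* LKO mice. All 12 had a positive log2 fold change. Of them, 2 (*Adgre1* and *Vsig4*) had an unadjusted p under 0.05, beside 7.01% of all genes tested, and none passed the threshold. The part of macrophages in the *Apoe* level was not tested. In whole liver, a change in the number of cells of a type and a change in the RNA of each cell cannot be told apart. *Apoc1*, a small protein of HDL and VLDL whose gene adjoins *Apoe*, ran from 10070 to 16516 FPKM around a median of 12263 in *Fgl1* LWT livers, and from 8884 to 13574 FPKM around 11332 in *Fgl1* LKO livers. In 6 of 8 *Fgl1* LKO livers *Apoc1* was under the median of the *Fgl1* LWT livers, and its log2 fold change was the most negative of the 10 (-0.17, 95% interval -0.43 to 0.09, adjusted p = 0.766; exact permutation test p = 0.149). *Apoh*, a phospholipid-binding plasma protein also known as beta-2-glycoprotein I, ran from 1754 to 2493 FPKM around a median of 2001 in *Fgl1* LWT livers, and from 1591 to 2338 FPKM around 1867 in *Fgl1* LKO livers. It had the smallest p of the members (log2 fold change -0.15, 95% interval -0.34 to 0.05, adjusted p = 0.729; exact permutation test p = 0.116), and without *Fgl1* LKO replicate 6 its exact permutation p was 0.034 while its limma p adjusted over all genes was 0.514.

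The mice carry numbers that fall into 4 runs (36 to 38, 48 to 55, 60 to 64 and 69 to 72), and the first run holds 3 *Fgl1* LWT mice only. The labels do not say what the runs are. *Apob* was at 577.9 to 650.0 FPKM in the 3 mice of the first run and at 395.4 to 443.0 FPKM in the 4 *Fgl1* LWT mice of the last 2 runs. The run 48 to 55 holds 1 *Fgl1* LWT and 3 *Fgl1* LKO mice, so that each difference in it rests on 1 *Fgl1* LWT liver. The run 60 to 64 holds 2 and 3 mice, and the run 69 to 72 holds 2 and 2. The difference between genotypes for *Apob*, *Fgl1* LKO minus *Fgl1* LWT on the log2 scale, was -0.08 in the run 48 to 55. It was 0.20 in the run 60 to 64 and 0.55 in the run 69 to 72. With the run as a term, limma gave 0.25 for *Apob* (unadjusted p = 0.026, adjusted p = 0.568) and -0.16 for *Apom* (unadjusted p = 0.039, adjusted p = 0.609). For *Apom* the differences within runs were -0.37, -0.15 and -0.03 in the same order. The 1 *Fgl1* LWT liver behind the -0.37, replicate 4, had the highest *Apom* value of all mice (518.4 FPKM). For *Apoa2* they were 0.07, 0.06 and 0.09, each from 4 or 5 mice. *Apoa4* had -0.36, -0.31 and 0.74, and *Apoa5* had -0.06, -0.0044 and 0.84. The 2 livers that stood above the rest for *Apoa4*, *Fgl1* LKO replicate 7 and *Fgl1* LWT replicate 8, were both of the run 69 to 72. For *Apoh* the differences within runs were -0.08, 0.15 and -0.21, and with the run as a term its log2 fold change was -0.03 in place of -0.15 (adjusted p = 0.952). For *Apoc1* they were 0.14, 0.04 and -0.43, and with the run as a term -0.09 in place of -0.17 (adjusted p = 0.875). None of the 10 genes passed the threshold with the run as a term or without the first run.

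Genes that act with the apolipoproteins were followed in 5 lists, and none of them passed the threshold either. Of 22 other apolipoprotein and related genes, the latter including *Apobr*, *Apobec1*, *Apoo* and *Apool*, 13 had a mean of at least 0.1 FPKM. The most abundant were *Apoc4* (1403 ± 145 FPKM in *Fgl1* LWT and 1348 ± 186 in *Fgl1* LKO mice, SD, n = 8 each), which lies in the same cluster as *Apoe* and *Apoc1*, and *Clu* (1114 ± 214 and 1065 ± 147 FPKM). Of these 13 genes, 0 had an unadjusted p under 0.05. Of 18 genes of lipoprotein assembly and secretion, 1 was higher (*Tor1aip1*, log2 fold change 0.21) and 1 lower (*Sort1*, a sorting receptor that binds APOB, log2 fold change -0.30) in *Fgl1* LKO mice at an unadjusted p under 0.05, with an adjusted p of 0.696 for each. The most abundant genes of this list, *P4hb*, a subunit of the microsomal triglyceride transfer complex, and *Ces1d*, a carboxylesterase, had log2 fold changes of 0.13 and -0.23. Of 13 genes of HDL formation and remodelling, *Pltp*, the phospholipid transfer protein, was higher (0.46), and *Abcg5* (-0.47) and *Abcg8* (-0.46), the partners in the transporter that moves cholesterol into bile, were lower at an unadjusted p under 0.05 and an adjusted p of 0.696 each. *Lcat* (360.4 ± 32.6 and 355.1 ± 48.3 FPKM) and *Pon1* (532.2 ± 128.3 and 488.5 ± 67.9 FPKM), both of HDL, were its most abundant genes. Of 17 genes of lipoprotein receptors and lipolysis, 0 had an unadjusted p under 0.05, among them *Lsr*, a lipoprotein receptor (123.1 ± 44.4 and 127.6 ± 19.0 FPKM). Of 25 transcriptional regulators, *Prox1* was higher (0.45) and *Foxa1* lower (-0.33) at an unadjusted p under 0.05, again with adjusted p of 0.696, and the most abundant, *Hnf4a* and *Creb3l3*, had log2 fold changes of 0.21 and 0.11. Over all genes tested, 895 of 12770 (7.01%) had an unadjusted p under 0.05, and the counts in the lists were not tested against that share. The median log2 fold changes of the 5 lists lay between -0.06 and 0.03, beside 0.01 over all genes.

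The livers differed from each other in their acute-phase mRNAs, and the members were set against these. The acute-phase level, the mean log2(FPKM + 1) of 16 genes that the liver makes more of in inflammation, such as *Saa1* and *Hp*, ran from 5.04 to 8.54. It was highest in *Fgl1* LWT replicates 5 (8.54) and 7 (8.44) and *Fgl1* LKO replicate 5 (7.96), so that both genotypes held high and low livers. *Saa1* itself, the gene of serum amyloid A1, lay between 63.8 and 16269 FPKM. In a fit over all genes with the genotype as a term, limma called 379 of 12754 genes (2.97%) for a slope on this level, 269 of them (2.11%) falling. *Apoa2* was the 1 member called, and its level fell by 0.16 on the log2 scale per unit of the acute-phase level (95% interval -0.23 to -0.08, adjusted p = 0.0298). *Apoe* had a slope of -0.10 (95% interval -0.16 to -0.03, unadjusted p = 0.0078, adjusted p = 0.106). The slopes of the other 8 members had adjusted p of 0.176 or more. In the same limma fit, 2 genes of the list of other apolipoprotein genes were called, and both rose. These were *Clu* (slope 0.18, adjusted p = 0.00034) and *Apol10b* (0.20, adjusted p = 0.0042), the latter at a mean of 0.22 FPKM in *Fgl1* LWT mice. Of the hepatocyte markers, *Alb* (-0.17), *Ttr* (-0.18) and *Cps1* (-0.15) were called as falling and *Hpx* (0.64) as rising.

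With the genotype means removed, *Apoa2* correlated with the acute-phase level at Pearson r = -0.82 (permutation test with 100000 resamples, two-sided, p = 0.0002; Spearman rho = -0.75, p = 0.00124; 16 mice). Over the 20 relations computed, 10 genes with 2 levels, its adjusted p was 0.0040. Without the 2 mice farthest from the median of the level, *Fgl1* LWT replicates 5 and 7, r was -0.76. Within the genotypes it was -0.87 in *Fgl1* LWT mice (exact permutation test, p = 0.0057) and -0.80 in *Fgl1* LKO mice (exact permutation test, p = 0.023). *Apoe* had r = -0.75 (permutation p = 0.0011, adjusted p = 0.011; rho = -0.70, p = 0.0031), and r = -0.72 without the same 2 mice. Within the genotypes *Apoe* had r = -0.83 and -0.67. Of the 10 members, 5 (*Apoa2*, *Apoe*, *Apoc3*, *Apoc1* and *Apoh*) had r of -0.5 or below. This held for 17.5% of all genes outside the acute-phase list and for 31.2% of the 757 of those genes whose mean reached 100 FPKM.

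**Figure D3:**
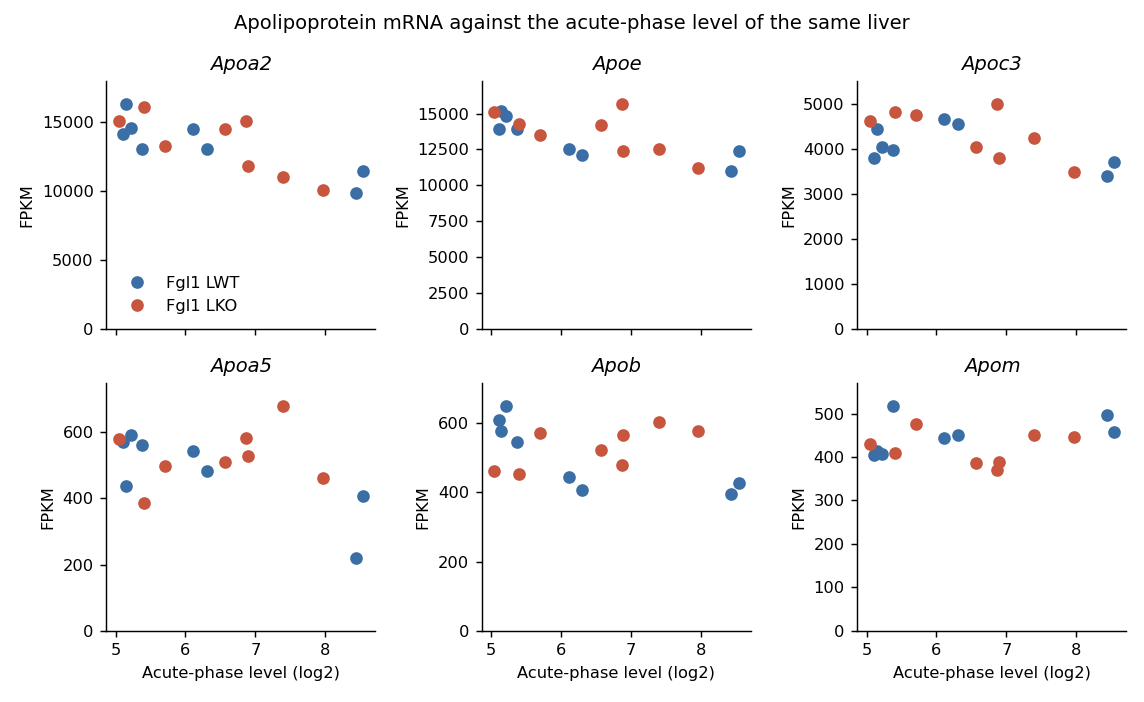
FPKM of 6 apolipoprotein genes against the acute-phase level (mean log2(FPKM + 1) of 16 genes) of the same liver, 8 *Fgl1* LWT (blue) and 8 *Fgl1* LKO (red) mice. *Apoa2* and *Apoe* are lower in livers with a higher level in both genotypes (r = -0.82 and -0.75 with genotype means removed), while *Apob* goes down in *Fgl1* LWT mice (r = -0.80) and up in *Fgl1* LKO mice (r = 0.68).

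These relations depended on a few livers and on the scaling to different degrees. Without the 3 livers of the highest acute-phase level, r was -0.63 for *Apoa2* (13 mice, permutation p = 0.023, adjusted p = 0.341 over the 20 relations) and -0.60 for *Apoe* (p = 0.034, adjusted p = 0.341), and 0 of the 20 relations passed the threshold. Acute-phase mRNAs made up 7.86% of all FPKM in *Fgl1* LWT replicate 7 and 4.14% in *Fgl1* LKO replicate 5, and FPKM are shares. With median-ratio scaling in place of the deposited FPKM, r was -0.75 for *Apoa2* and -0.64 for *Apoe*, and *Apoa2* alone passed. With the run of mouse numbers removed as well as the genotype, r was -0.82 for *Apoa2*, -0.62 for *Apoe* and -0.83 for *Apoc3*, against -0.60 for *Apoc3* without that step, and *Apoa2* and *Apoc3* passed. Without the 3 livers of the highest level, r for *Apoc3* was -0.13.

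*Apob* and *Apoa5* did not follow the level in the same way in both genotypes. *Apob* had r = -0.80 in *Fgl1* LWT mice (exact permutation test, p = 0.0080) and r = 0.68 in *Fgl1* LKO mice (exact permutation test, p = 0.072). *Apoa5* had r = -0.78 (exact permutation test, p = 0.020) and r = 0.26 (exact permutation test, p = 0.538). In limma, the difference of the slopes between genotypes had an unadjusted p of 0.0019 for *Apob* and 0.018 for *Apoa5*, and neither passed after adjustment over all genes (adjusted p = 0.530 and 0.583). Of the 4 *Fgl1* LWT mice with the lowest acute-phase level, 3 were those of the run 36 to 38, which holds no *Fgl1* LKO mouse, and with the run removed r for *Apob* over all mice was 0.14. *Apom* had a positive r of 0.26 (permutation p = 0.329), and *Apoa4* had r = -0.23 (permutation p = 0.400).

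The lipogenesis level, the mean of 12 genes of fatty acid synthesis such as *Scd1*, ran from 4.93 to 7.53, and none of its relations with the members passed the threshold with the genotype alone removed. For this level limma called 46 of 12758 genes (0.361%), and 0 of the 10 members. The correlations of the members with it lay between -0.43 for *Apoa4* (permutation p = 0.090, adjusted p = 0.257 over the 20 relations; rho = -0.55, p = 0.030) and 0.34 for *Apom* (permutation p = 0.205). *Apob* had r = -0.31 (permutation p = 0.244). That r was -0.10 without the 2 mice farthest from the median of the level, and -0.33 with the run of mouse numbers removed (permutation p = 0.217). A length contrast between long and short transcripts was chosen after the values were seen, and *Apob* followed it at r = 0.89. With this contrast removed as well as the genotype, what was left of *Apob* had r = -0.75 with the lipogenesis level (permutation p = 0.0011, adjusted p = 0.0073 over the 20 relations), which passed.

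Members were also compared with each other over the 16 mice, with genotype means removed. *Apoa2* and *Apoe* moved most closely together (r = 0.88, permutation p = 1e-05, the smallest that the resamples can give; adjusted p = 0.00045 over 45 pairs; rho = 0.86, p = 5e-05). Without the 2 mice farthest from the median of *Apoa2* (*Fgl1* LWT replicate 7 and *Fgl1* LKO replicate 5) r was 0.79, and with the run removed it was 0.84. The other pairs that passed were *Apoa2* with *Apoc3* (r = 0.77, permutation p = 0.00049, adjusted p = 0.011; rho = 0.67, p = 0.0056) and *Apoe* with *Apoh* (r = 0.72, permutation p = 0.0021, adjusted p = 0.032; rho = 0.71, p = 0.0028). Without the 2 mice farthest from the median of the first gene of each pair, r was 0.58 and 0.86. Of all 45 pairs, 36 had a positive r, with a median of 0.21. Of the 292995 pairs of all genes whose mean reached 100 FPKM, 163439 had a positive r, with a median of 0.06. The share of those pairs that would pass the threshold was not computed.

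*Apom* was the exception, with a negative r in 8 of its 9 pairs, down to -0.56 with *Apoa2* (permutation p = 0.025, adjusted p = 0.113). Neighbours on a chromosome were looked at separately. The 7 pairs within a cluster, 6 on chromosome 9 and *Apoc1* with *Apoe* on chromosome 7, had r of 0.20 to 0.58 and none passed after adjustment, the highest being *Apoc3* with *Apoa4* (permutation p = 0.019, adjusted p = 0.093; rho = 0.55, p = 0.029). *Apoc1* and *Apoe* had r = 0.41 (permutation p = 0.119), less than *Apoe* had with *Apoa2* on chromosome 1. Whether pairs within and outside clusters differ was not tested.

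**Figure D4:**
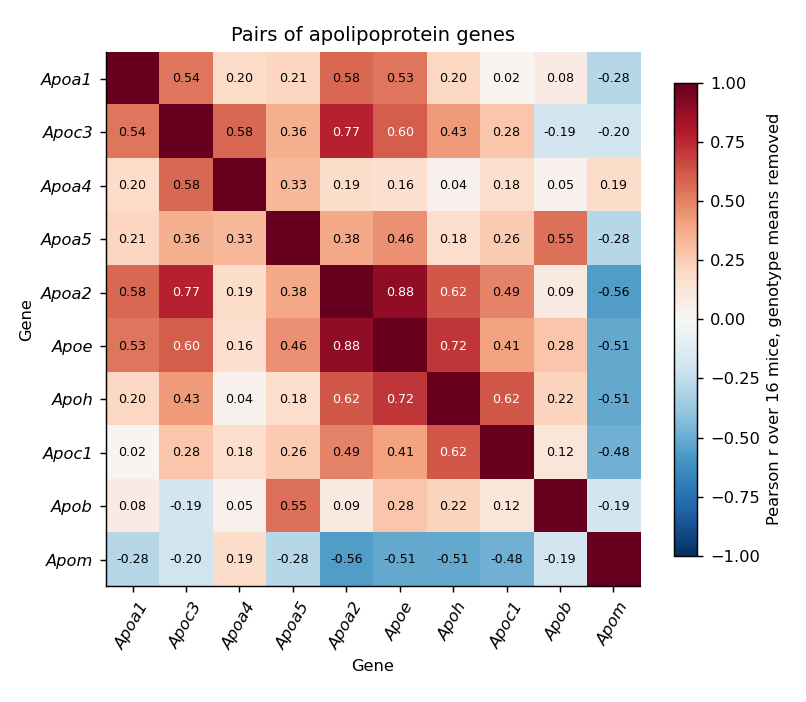
Pearson r over 16 mice, genotype means removed, for every pair of the 10 apolipoprotein genes; red is positive and blue negative, and the 4 genes of the chromosome 9 cluster come first. The 3 strongest pairs join *Apoa2*, *Apoe*, *Apoc3* and *Apoh* (0.88, 0.77 and 0.72), and the row of *Apom* is blue except with *Apoa4*.

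Of the 10 members, *Apob* alone passed the threshold, adjusted over these 10, for a relation with the contrast between long and short transcripts. The share of all genes that follow this contrast was not computed. The transcript of *Apob*, at 13934 bases, is longer than the 6934 bases from which a gene was counted as long. This length contrast was computed per mouse on the log2 scale with genotype means removed, and was chosen after the values were seen. It is the mean of the 982 genes with the longest transcripts minus that of the 985 with the shortest. Both sets were taken from genes whose mean reached 1 FPKM, with the members left out. It ran from -0.15 to 0.19 and was highest in *Fgl1* LWT replicates 2 and 3. In *Fgl1* LWT mice it was positive in the first 2 runs of mouse numbers (0.06 to 0.19) and negative in the last 2 (-0.15 to -0.12). *Apob* in *Fgl1* LWT mice was likewise at 545.1 to 650.0 FPKM and at 395.4 to 443.0 FPKM. In *Fgl1* LKO mice both signs occurred within the runs 48 to 55 and 60 to 64. The relation of *Apob* with the contrast was not computed with the run removed. *Apob* followed it at r = 0.89 (permutation p = 2e-05, adjusted p = 0.0002 over 10 genes; rho = 0.84, p = 0.00014), and at r = 0.87 without the 2 mice farthest from its median. The other 9 members had r of -0.26 to 0.44 and adjusted p of 0.423 or more. The contrast itself had r = -0.50 with the acute-phase level (permutation p = 0.048). With the contrast removed as well as the genotype, the acute-phase relation was r = -0.90 for *Apoa2*, -0.72 for *Apoe*, -0.87 for *Apoc3* and 0.18 for *Apob*. The part of RNA quality or library preparation in these values was not tested.

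**Figure D5:**
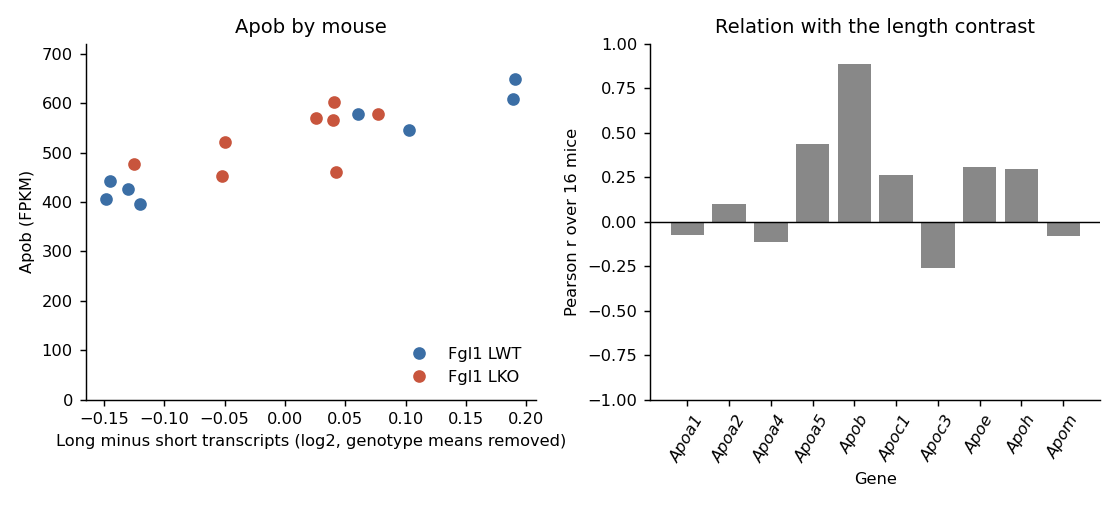
Left, *Apob* (FPKM) against the length contrast (log2, long minus short transcripts, genotype means removed) in 8 *Fgl1* LWT (blue) and 8 *Fgl1* LKO (red) mice; right, Pearson r of each apolipoprotein gene with that contrast over 16 mice. The bar of *Apob* stands at 0.89 and the other 9 bars lie between -0.26 and 0.44.

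For each member, the 2 genes whose values were most like it over the 16 mice were taken from the 10037 genes whose mean reached 1 FPKM, by Pearson r with genotype means removed. For *Apoa2* they were *Pink1* (r = 0.94), a kinase of mitochondrial quality control, and *Chchd10* (0.93), a mitochondrial protein, and for *Apoe* they were *Pink1* (0.90) and *Aldh2* (0.89), the mitochondrial aldehyde dehydrogenase. Among those of *Apoa5* was *Angptl4* (0.84), an inhibitor of lipoprotein lipase. For *Apob* they were *Ash1l* and *Dync1h1* (0.91 each), whose transcripts have 11644 and 16498 bases. The median transcript length of its 50 most similar genes was 7556 bases. It was 3324 bases over all genes outside the members that had a length and a mean of at least 1 FPKM. For *Apoa1* they were *Ttyh3* and *Tcf25* (0.81 each), for *Apoc1* *Asic5* (0.94) and *Rmdn1* (0.93), and for *Apoc3* *Plekhg5* (0.87) and *Dnajc8* (0.85). For *Apoh* they were *Cyp2c37* (0.93), a cytochrome P450, and *Dcaf6* (0.92), for *Apom* *Dbndd2* (0.82) and *Plac8* (0.80), and for *Apoa4* *Znrf3* (0.76) and *Dido1* (0.74). These are the highest of many values and are descriptions. With the run of mouse numbers removed, 0 of the 20 genes chosen in this way were again among the 2 most similar.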

How the data were processed

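Liver RNA from 16 mice, 8 per genotype, was sequenced on a DNBSEQ platform. The authors' notes name HISAT, Bowtie2 and the mm39 assembly. Tool versions, the counting step and the annotation are not given in the sources used here. The deposited values are FPKM with 2 decimals, not counts, so that depth and counting error are unknown; relative depth estimated from low values lay between 0.94 and 1.04. Here 1 was added, log2 was taken, and genes whose mean reached 0.1 FPKM were kept (12770). Genotypes were compared with limma 3.58.1 (R 4.3.3; lmFit, eBayes with trend), two-sided, threshold 0.05 on Benjamini-Hochberg adjusted p, and with exact permutation tests (Python 3.11.15, numpy 2.4.6, scipy 1.17.1, pandas 2.3.3). Steps were tested on simulated data. No libraries had identical values. Replicate numbers come from the labels, but only 3 of 8 same-numbered pairs deviated together (correlation over 0.1), so that the numbers were not taken as pairs.

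The members, gene lists, tests and rule for named genes were chosen with earlier results of these data known. That rule names the members, *Fgl1*, the 2 genes most like each member and, of each list, the 2 with the highest mean and any with an unadjusted p under 0.05; of the marker, acute-phase and lipogenesis lists only the genes needed beside a result are given. Results of some genes that it names are not reported here. Each mouse is a sample of its own. Alternatives were other pseudocounts (0.1 and 0.01), filters, scalings, weights and tests, the run of mouse numbers, a block for replicate numbers, an acute-phase covariate and leaving out each mouse. The limma slopes on the 2 levels, the omission of 3 livers and the length contrast were added after the data were seen.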

Additional observations from a re-analysis of the deposited data

Results flagged for a closer look

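In each genotype, the highest and lowest mouse of the 10 genes and of *Fgl1* were compared with the nearest other mouse (22 groups of 8, of which chance is expected to single out about 1). One value stood apart. *Apoa5* in *Fgl1* LWT replicate 7 was 220.0 FPKM, and the next lowest *Fgl1* LWT mouse had 407.4 FPKM, a gap of 0.62 of the log2 range of the group, past Dixon's limit for 8 samples. The same liver was also the lowest of all 16 for *Apoa2*, *Apoa4*, *Apob*, *Apoc3* and *Apoe*, and its acute-phase level was 8.44, below only that of *Fgl1* LWT replicate 5 (8.54). Without it, the log2 fold change of *Apoa5* between genotypes was 0.03, against 0.19 with it.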

How the results depend on the processing

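The count of 0 apolipoprotein genes past the threshold between genotypes held under all 30 alternatives, including each mouse left out, with a smallest adjusted p of 0.514 over 300 single-gene fits. Over all genes the count of 0 rose to 1, *Fgl1*, after rescaling to an equal sum, with a replicate block (adjusted p = 0.0197), in a fit with a term for runs of mouse numbers, without the run 36 to 38 and with the acute-phase covariate. Directions of small differences turned: *Apoa1* (-0.04) was 0.012 with quantile normalization, 0.0036 without the run 36 to 38 and 0.11 as a difference of medians beside the rank-sum test; *Apoa2* (-0.0047) was 0.018, 0.10 and 0.028 there, 0.0042 with an equal sum, 0.074 with the run as a term and 0.026 with the acute-phase covariate; *Apoa4* (-0.04) was 0.035 with the run as a term. With each mouse left out in turn, *Apoa1* ranged from -0.059 to 0.025, *Apoa2* from -0.065 to 0.051 and *Apoa4* from -0.24 to 0.13. The count of members with an exact permutation p under 0.05 was 0, and 0 to 1 with a mouse left out.

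Of the 20 relations with the 2 levels, 2 passed, *Apoa2* and *Apoe* with the acute-phase level. The count was 1 with median-ratio scaling and 1 with limma over all genes, 4 with an equal sum, 4 with the length contrast removed (*Apoa2*, *Apoc3* and *Apoe* with the acute-phase level and *Apob* with the lipogenesis level, r = -0.75), 0 in *Fgl1* LWT mice on their own, 0 in *Fgl1* LKO mice on their own, 0 without the 3 livers of the highest acute-phase level, and 2 to 4 with each mouse left out, 4 without *Fgl1* LKO replicate 6. Relations with the acute-phase level that turned were those of *Apob* (-0.38; 0.14 with the run removed, 0.68 in *Fgl1* LKO mice, 0.18 with the length contrast removed), *Apom* (0.26; -0.12 with the run removed, -0.069 in *Fgl1* LKO mice, -0.10 without the 3 livers), *Apoa5* (-0.49; 0.26 in *Fgl1* LKO mice, 0.38 without the 3 livers) and *Apoa4* (-0.23; 0.16 without the 3 livers). Of the 20 most similar genes, 11 were named again with an equal sum, 12 with median-ratio scaling and 0 with the run removed. The cause of these changes was not tested. The replicate block changed no call of a member, and as the numbers do not pair the mice it is given as a count only. Without read counts, counting error cannot be given.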
